A study of Mus musculus with 12 samples.

Results

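The ATF4 core of the integrated stress response was followed in mouse splenic B cells as 10 genes, chosen by symbol: Atf4, Ddit3, Atf5, Trib3, Cebpb, Cebpg, Ddit4, Sesn2, Nupr1 and Asns. All 10 were among the 24982 gene symbols that every library reported. Polyadenylated RNA came from B lymphocytes of the spleen of mice aged 6 weeks, in 12 libraries, 4 for each of 3 genotypes. WT mice carried neither genetic change, and the series text gives their strain as C57BL/J6. Eμ-Myc mice carried a Myc transgene driven by the enhancer of the immunoglobulin heavy-chain locus, active in the B lineage. The third group, labelled Eμ-Myc; PRPS2 KO and called the knockout group below, carried the same transgene and lacked PRPS2, one of the phosphoribosyl pyrophosphate synthetases, which supply the sugar phosphate of nucleotides. The labels do not say how PRPS2 was deleted or in which cells, and no group lacked PRPS2 without the transgene. They call the libraries biological replicates without saying which animals gave them, so each p-value measures the spread between these libraries.

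The integrated stress response is a switch in translation. Stress-sensing kinases phosphorylate the initiation factor eIF2, most protein synthesis slows, and a few mRNAs with upstream reading frames, Atf4 among them, are translated better. The ATF4 protein then turns on genes for amino acid supply, together with its own partners and brakes. Because the switch acts on translation, the level of Atf4 mRNA does not measure the activity of the ATF4 protein. MYC, which raises the demand for protein synthesis, is known to engage this pathway in lymphoma cells.

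The deposited values are coverage per gene with 1 decimal, and all levels below are coverage after scaling between libraries. The files do not say whether coverage is corrected for gene length, so levels are compared between libraries of a gene and not between genes. Summed over genes, coverage ranged between 1277305.5 and 1885768.9 in the 12 libraries, and between 14900 and 16231 genes were above 0. Read numbers are not given in the sources used here, so each error is an SD over the 4 libraries of its group. Prps2 averaged 128 ± 19.3 in WT and 245 ± 36.6 in Eμ-Myc, and the knockout group had 17.1 ± 1.10, while Myc averaged 278 ± 54.6, 1909 ± 310 and 2258 ± 1006 in the same order (SD, n = 4 each). Of 8 B cell markers 7 were listed and none was at 0 in any library, while T cell, NK cell and myeloid markers were present as well. The summed coverage of the B cell markers was 6567 and 6286 in WT libraries 1 and 4 against 12095 and 10351 in WT libraries 2 and 3. The summed coverage of 11 T cell markers ran from 820 to 4514 in WT and from 180 to 251 in Eμ-Myc. The knockout group gave 962 and 1061 in libraries 1 and 2 against 77.6 and 76.3 in libraries 3 and 4. The myeloid sum over 15 markers split this group the same way, at 18036 and 12986 against 3241 and 1556, so that knockout libraries 3 and 4 stood apart from libraries 1 and 2. In RNA from a cell population, fewer cells of a type and less RNA per cell cannot be told apart.

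The promoters of 5 members are shown first: Asns and Nupr1 because they hold, before the start site, the element that ATF4 binds together with a C/EBP partner, and Ddit3, Ddit4 and Sesn2 because their levels passed the test in Eμ-Myc. Each line gives the 180 bases before the annotated start site from RefSeq, build GRCm38.p6 (the submitters' processing notes name mm10), read 5′ to 3′ on the strand of the gene. Capitals mark TGATGNAA, the C/EBP-ATF composite element, or CCAAT, the CCAAT box, on either strand, so that CCAAT on the other strand reads ATTGG. Asns lies on the minus strand at chr6:7675165-7693209 and its window is chr6:7693210-7693389. Nupr1 lies on the minus strand at chr7:126623246-126625470 with the window chr7:126625471-126625650. Ddit3 lies on the plus strand at chr10:127290793-127296291 with the window chr10:127290613-127290792. Ddit4 lies on the minus strand at chr10:59949675-59951770 with the window chr10:59951771-59951950. Sesn2 lies on the minus strand at chr4:132492804-132510456 with the window chr4:132510457-132510636.
Asns: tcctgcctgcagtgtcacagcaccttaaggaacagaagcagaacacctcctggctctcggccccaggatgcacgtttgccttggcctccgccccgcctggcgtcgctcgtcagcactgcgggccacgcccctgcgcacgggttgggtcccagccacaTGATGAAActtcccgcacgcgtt
Nupr1: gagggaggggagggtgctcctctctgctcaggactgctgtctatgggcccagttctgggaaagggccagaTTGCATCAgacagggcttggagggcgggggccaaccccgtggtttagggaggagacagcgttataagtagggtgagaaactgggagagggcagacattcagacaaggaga
Ddit3: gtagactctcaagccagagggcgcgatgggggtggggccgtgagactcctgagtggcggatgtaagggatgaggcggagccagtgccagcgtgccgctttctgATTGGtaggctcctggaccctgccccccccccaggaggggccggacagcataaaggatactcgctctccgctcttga
Ddit4: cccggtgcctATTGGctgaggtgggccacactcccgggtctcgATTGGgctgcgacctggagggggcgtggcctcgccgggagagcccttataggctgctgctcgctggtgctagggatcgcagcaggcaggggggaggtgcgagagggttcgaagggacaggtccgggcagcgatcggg
Sesn2: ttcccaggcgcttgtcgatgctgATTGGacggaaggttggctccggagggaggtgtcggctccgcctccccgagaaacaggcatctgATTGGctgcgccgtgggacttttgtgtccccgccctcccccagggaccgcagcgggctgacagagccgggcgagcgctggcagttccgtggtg

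The 300 bases from 250 before to 50 after each start site were searched on both strands for these elements and for TGACGTCA, the core of the cyclic AMP response element, and CACGTG, the E-box that MYC and MAX bind. No match overlapped another. The composite element TGATGNAA was in the promoters of 3 of the 10 members, against 3.97% of 32851 RefSeq promoters of the same length. In Asns it read TGATGAAA from 23 to 16 bases before the start. In Nupr1 it lay on the other strand, reading TTGCATCA on the strand of the gene, from 110 to 103 bases before the start. In Trib3, at chr2:152337425-152344060 on the minus strand, it read TTACATCA from 14 to 21 bases after the start, outside the stretch printed. CCAAT was in 6 of the 10, against 37.4% of all promoters, and the printed windows hold 2 copies each in Ddit4 and Sesn2 and 1 in Ddit3. Atf5 counts among the 6 only through the inner of its annotated starts. CACGTG was in 1, Nupr1, against 7.15%, and TGACGTCA in 0, against 1.79%. A match describes letters in this window and was not tested as a binding site.

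**Figure D1:**
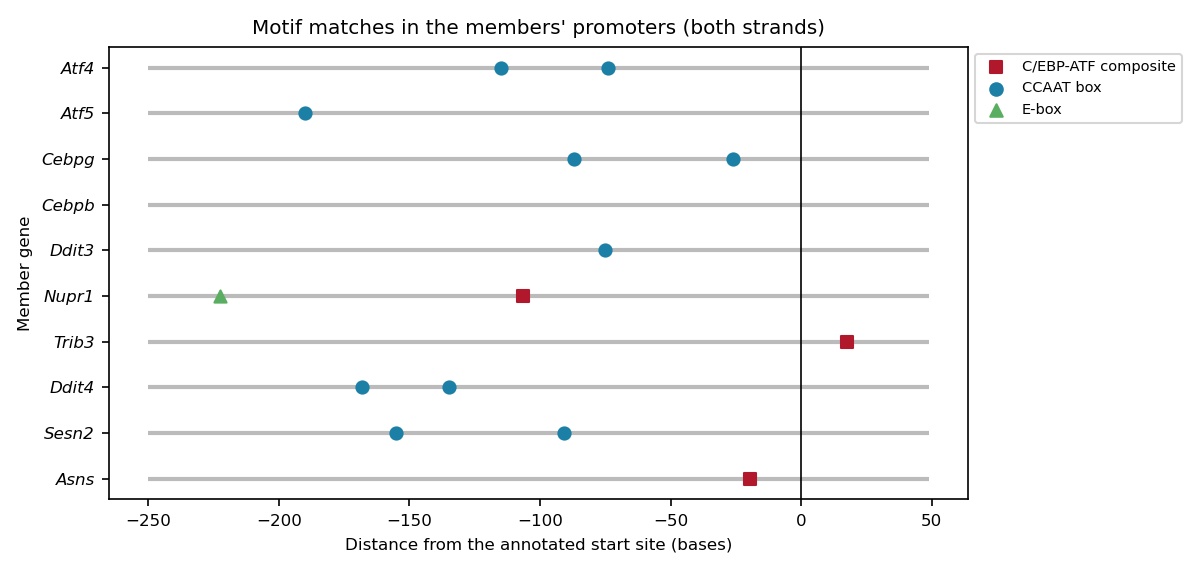
Motif matches on either strand in the promoter of each member, with the distance from the annotated start site in bases on the horizontal axis and 1 grey line per member. The match of Atf5 belongs to its inner annotated start, and the promoter of its outermost start holds no match. The composite element lies before the start in Asns and Nupr1 and after it in Trib3, and no member holds both the composite element and a CCAAT box.

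Between Eμ-Myc and WT the core did not move as a unit. Asns, the enzyme that makes asparagine, rose 6.64-fold. Ddit3, Ddit4 and Sesn2, the death factor and the inhibitors of growth signalling of the pathway, fell by 0.85, 0.99 and 0.98 on the log2 scale. Atf4 itself, Atf5 and Cebpg gave changes between -0.17 and 0.18, and Cebpb and Nupr1, which varied widely between libraries, did not pass. Folds and log2 changes are on the scale of log2(scaled coverage + 0.5), which understates the change of low genes, and a gene passed where the p of limma, adjusted by Benjamini and Hochberg's method across the 12704 genes tested, was under 0.05. Trib3 was tested only because of its WT libraries, so it is left out of the counts and its values are described below. Of the other 9 members 1 passed as higher and 3 as lower, where 55.6% of all genes tested passed, 29.2% as higher and 26.5% as lower. The groups did not overlap for Ddit3, Ddit4 and Asns among these 9, where 51.9% of all genes did not overlap. With so few members these counts are close to the shares over all genes and show nothing particular to the members. The median change of these 9 members was -0.85, against -0.04 over all genes tested, and it was -0.19 without WT library 1.

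**Figure D2:**
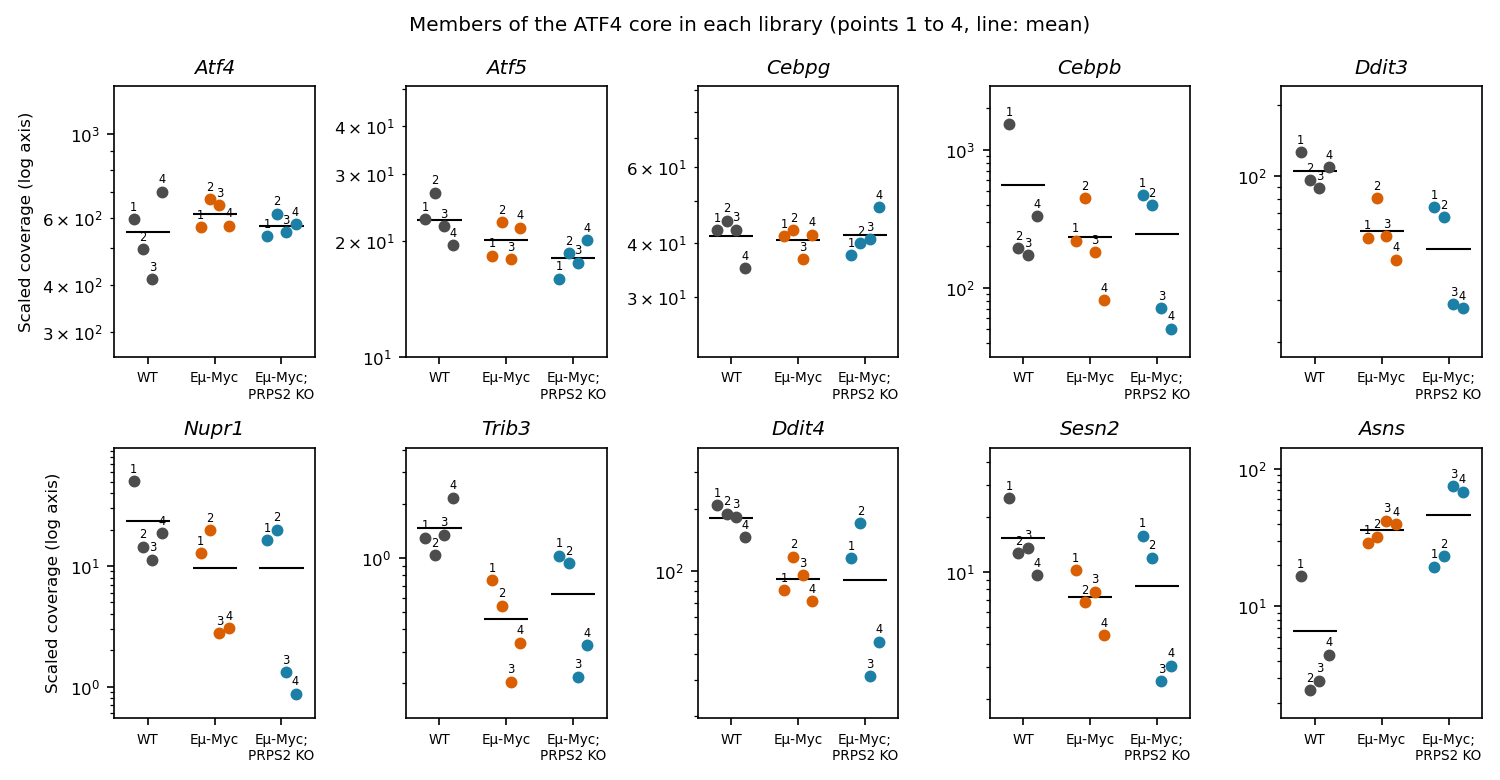
Scaled coverage (log axis) of each of the 10 members in the 12 libraries, with points numbered by replicate and coloured by group and a line at the group mean. Asns is higher in each of the 4 Eμ-Myc libraries (29.0 to 42.0) than in each WT library (2.46 to 16.5), while Ddit3 and Ddit4 are lower, and knockout libraries 3 and 4 lie away from libraries 1 and 2 for Ddit3, Cebpb, Nupr1, Trib3, Ddit4, Sesn2 and Asns.

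Atf4, the basic leucine zipper factor at the centre of the pathway (chr15:80255184-80257545, plus strand), read 595, 497, 413 and 703 in WT libraries 1 to 4. It read 568, 672, 648 and 573 in Eμ-Myc, and the knockout group gave 537, 615, 551 and 578. All 12 values lay within the WT range, whose highest library was 1.70 times its lowest. The log2 change in Eμ-Myc against WT was 0.18 (SE 0.16, 95% interval -0.18 to 0.54, limma adjusted p 0.358). Without WT libraries 1 and 4, which had the highest T cell sums and also the highest Atf4 values of WT, it was 0.44. These libraries were left out after the values were seen, so 0.44 is a description and no test. In order of the means Eμ-Myc (615 ± 52.6) came first, then the knockout group (570 ± 34.5) and WT (552 ± 125; SD, n = 4 each), and no pair of neighbours differed beyond its spread.

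Atf5 and Cebpg, a related leucine zipper factor under the same translational control and the partner with which ATF4 binds composite elements, varied less between WT libraries than Atf4 did. Atf5 (chr7:44812256-44816658, minus strand) read 22.9, 26.8, 21.9 and 19.6 in WT, 18.4, 22.5, 18.0 and 21.7 in Eμ-Myc, and the knockout group gave 16.0, 18.7, 17.6 and 20.2. The groups overlapped, and the log2 change in Eμ-Myc against WT was -0.17 (SE 0.14, 95% interval -0.48 to 0.14, limma adjusted p 0.307). Atf5 overlaps Nup62 by 571 bases and Il4i1 by 272 bases on the opposite strand. The library kit keeps strand, but whether the counting used it is not given in the sources used here, so its values are uncertain. Cebpg (chr7:35046422-35056566, minus strand) ran from 35.0 to 45.1 in WT, from 36.7 to 42.8 in Eμ-Myc, and the knockout group gave 37.6 to 48.4. Its log2 change of -0.02 (SE 0.11, limma adjusted p 0.880) has a 95% interval from -0.27 to 0.23, and it turned positive without WT library 2 or Eμ-Myc library 3.

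Ddit3 encodes CHOP, the factor that ATF4 induces and that favours cell death when stress lasts. It read 126, 95.9, 88.8 and 109 in WT and 55.0, 80.5, 55.7 and 44.4 in Eμ-Myc, so that each Eμ-Myc library lay below each WT library. Its mean fell from 105 ± 16.4 to 58.9 ± 15.3 (SD, n = 4 each), a log2 change of -0.85 (SE 0.18, limma adjusted p 0.00368). The call was kept without any 1 library and was lost when all 12 libraries shared a fit, at an adjusted p of 0.0502.

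Cebpb, a C/EBP factor induced by stress and inflammation and abundant in myeloid cells, read 1522, 192, 172 and 330 in WT and 219, 447, 182 and 80.9 in Eμ-Myc. WT library 1 was far above every other library, and the groups overlapped. The log2 change was -0.88 (SE 0.73, 95% interval -2.54 to 0.78, limma adjusted p 0.330), and without WT libraries 1 and 4 it was 0.10. Cebpb (chr2:167688915-167690432, plus strand) overlaps Tmem189 by 908 bases on the opposite strand, so its values share the doubt stated for Atf5. On their own strand, Sesn2 overlaps Gm12981 by 6089 bases, and Cebpg overlaps Gm44836 by 1140 and Gm45094 by 617. Reads of such shared stretches cannot be told apart by strand. Nupr1, a small nuclear stress protein that works with ATF4, read 50.4, 14.5, 11.3 and 18.8 in WT and 12.8, 19.8, 2.76 and 3.04 in Eμ-Myc. Eμ-Myc libraries 3 and 4 lay below WT, and libraries 1 and 2 within its range. The log2 change was -1.45 (SE 0.68, 95% interval -2.99 to 0.10, limma adjusted p 0.0984). It passed without Eμ-Myc library 2 (adjusted p 0.0364), with the replicate number as a block (0.0436) and with library quality weights (0.00862).

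Ddit4 and Sesn2 connect the pathway to mTORC1, the kinase complex that drives growth: the product of Ddit4 acts through the TSC complex, and Sestrin-2 through leucine sensing. Ddit4 read 207, 189, 183 and 146 in WT and 81.2, 118, 95.7 and 71.9 in Eμ-Myc, without overlap. Its log2 change was -0.99 (SE 0.17, limma adjusted p 9.2e-04), and in the fit of all 12 libraries the adjusted p was 0.0806. Sesn2 read 25.3, 12.7, 13.6 and 9.60 in WT and 10.2, 6.80, 7.78 and 4.50 in Eμ-Myc. Here the lowest WT library lay below the highest Eμ-Myc library. The log2 change was -0.98 (SE 0.32, limma adjusted p 0.0256). The call did not hold without WT library 1 (adjusted p 0.0509), Eμ-Myc library 2 (0.0567) or Eμ-Myc library 4 (0.0682), or in the fit of all 12 libraries (0.148).

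Trib3, a pseudokinase that ATF4 induces and that in turn restrains it, was close to the resolution of the files. It read 1.30, 1.04, 1.35 and 2.17 in WT, 0.754, 0.544, 0.205 and 0.337 in Eμ-Myc, and the knockout group gave 1.03, 0.933, 0.219 and 0.327. Each value of both Eμ-Myc groups lay below each WT value. The log2 change in Eμ-Myc against WT was -1.04, a size that depends on the added constant: it was -1.54 with 0.1 and -0.49 with 2. Since Trib3 reached the filter there only through WT, where it is higher, this change is a description and no test. In this comparison Trib3 did not reach the filter when any 1 WT library was left out, and it was not tested between the 2 Eμ-Myc groups.

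Asns gave the largest change of the 10. It read 16.5, 2.46, 2.89 and 4.46 in WT and 29.0, 32.2, 42.0 and 39.7 in Eμ-Myc. Each Eμ-Myc library was above WT library 1, the highest of its group. The mean went from 6.59 ± 6.69 to 35.7 ± 6.12 (SD, n = 4 each), a log2 change of 2.73 (SE 0.50, limma adjusted p 0.00167), and the call was kept under each alternative that tested it (the filter at 10 in every library removed the gene). Without WT library 1 the change was 3.28.

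Setting the knockout group against Eμ-Myc asks whether losing PRPS2 shifts the core in cells that already carry the transgene. No member differed beyond the spread between libraries: 0 of the 9 tested passed in limma and 0 had an unadjusted p under 0.05. Over all 12535 genes 1 passed, Prps2 itself, which is 0.00798%, and 121 had an unadjusted p under 0.05. No member separated the 2 groups, where 1.57% of all genes did. The intervals were wide for most members. The log2 changes and their 95% intervals were -0.11 (-0.36 to 0.15) for Atf4, -0.15 (-0.46 to 0.16) for Atf5 and 0.03 (-0.24 to 0.30) for Cebpg. Changes of Ddit3 were -0.36 (-1.20 to 0.48), of Ddit4 -0.30 (-1.47 to 0.87) and of Sesn2 -0.14 (-1.48 to 1.20). Cebpb gave -0.28 (-2.20 to 1.64), Nupr1 -0.47 (-2.91 to 1.98) and Asns 0.14 (-0.90 to 1.18). For Atf4, Atf5 and Cebpg these intervals exclude a change by 1 on the log2 scale in either direction, and for the other 6 they do not.

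Within the knockout group, libraries 1 and 2 differed from libraries 3 and 4 in 7 of the members, Trib3 with the values given above among them. Ddit3 read 73.8 and 67.2 in knockout libraries 1 and 2 against 28.8 and 27.7 in libraries 3 and 4. Ddit4 read 116 and 170 against 31.4 and 45.8, and Sesn2 15.8 and 11.9 against 2.51 and 3.05. Nupr1 read 16.3 and 19.9 against 1.31 and 0.873, and Cebpb 467 and 395 against 71.0 and 50.5. Asns went the other way, with 19.4 and 23.2 against 75.1 and 68.0. For these 7 genes libraries 1 and 2 lay on the WT side of the Eμ-Myc mean, and libraries 3 and 4 on the far side. Myc itself split in the same direction as Asns, with 1117 and 1718 against 2970 and 3227, and the T cell, NK cell and myeloid sums in the opposite one. Plasma cell markers went both ways. Jchain (187 and 234 against 1.97 and 2.40), Prdm1 and Tnfrsf17 were lower in knockout libraries 3 and 4. Mzb1 (437 and 535 against 783 and 732), Sdc1 and Irf4 were higher there. Prps2 did not split, at 15.9 to 18.6 in the 4 libraries.

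Each pair of knockout libraries was then set against the 4 Eμ-Myc libraries, an alternative chosen after these values were seen. The split is visible in the values of these same genes, so the changes are a description and no p-value is given here. Counts of genes passing in these fits, given below, describe the split as well and test nothing. With knockout libraries 3 and 4 left out they were 0.29 for Ddit3, 0.63 for Ddit4, 0.92 for Sesn2 and -0.72 for Asns. With libraries 1 and 2 left out they were -1.01 for Ddit3, -1.24 for Ddit4, -1.20 for Sesn2 and 1.01 for Asns. Both fits used all 4 Eμ-Myc libraries, which themselves differed by number: Nupr1 read 12.8 and 19.8 in Eμ-Myc libraries 1 and 2 against 2.76 and 3.04 in libraries 3 and 4, and the NK cell sum 253 and 283 against 144 and 114. Set against the Eμ-Myc library of the same number, the log2 differences for numbers 1 to 4 were 0.42, -0.26, -0.94 and -0.67 for Ddit3. For Nupr1 they were 0.34, 0.01, -0.85 and -1.37, and for Asns -0.57, -0.46, 0.83 and 0.77. Ddit4 gave 0.51, 0.53, -1.59 and -0.64, and Sesn2 0.61, 0.77, -1.46 and -0.49. Cebpb gave 1.09, -0.18, -1.35 and -0.67. Each of Asns, Ddit4, Sesn2 and Nupr1 had 1 sign in numbers 1 and 2 and the other in numbers 3 and 4. Ddit3 and Cebpb had both signs within numbers 1 and 2. Library quality weights, which gave knockout libraries 3 and 4 weights of 3.13 and 8.02 and libraries 1 and 2 weights of 0.0837 and 0.130, called 7 of the 9 and 7315 of 12535 genes. What the cell markers and Myc contribute to this split was not tested.

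Against WT the knockout group gave the third comparison, which shares the WT libraries with the first. Asns was higher by 2.87 (SE 0.67, limma adjusted p 0.0242) and Ddit3 lower by a log2 change of -1.21 (SE 0.35, adjusted p 0.0379), both without overlap between the groups. Of the 9 members other than Trib3 these 2 passed, where 30.2% of 12692 genes passed, 19.2% as higher and 10.9% as lower, and where 38% of all genes did not overlap. Ddit4 changed by -1.29 (95% interval -2.44 to -0.15, adjusted p 0.0745), Sesn2 by -1.12 (-2.50 to 0.26, adjusted p 0.157) and Trib3 by -0.85 (-1.61 to -0.08, adjusted p 0.0779), none of which passed. Ddit4 passed without knockout library 1 or 2 (adjusted p 0.0437 and 0.0323), and Sesn2 without library 1 (0.0463). Nupr1 gave -1.92 (adjusted p 0.142) and Cebpb -1.16 (adjusted p 0.328). Atf4 gave 0.07 (95% interval -0.32 to 0.46), Atf5 -0.32 (-0.65 to 0.01) and Cebpg 0.01 (-0.29 to 0.31). Both calls rested on few libraries. Ddit3 lost its call without any 1 of the WT libraries or without knockout library 3 or 4, with adjusted p from 0.0793 to 0.0999. Asns lost it without WT library 2, 3 or 4 or knockout library 3 or 4, with adjusted p from 0.0557 to 0.0732, and with the replicate number as a block (adjusted p 0.0527). With knockout libraries 3 and 4 left out, a choice made after the values were seen, the changes were -0.56 for Ddit3 and 2.01 for Asns. These 2 values are a description and no test.

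**Figure D3:**
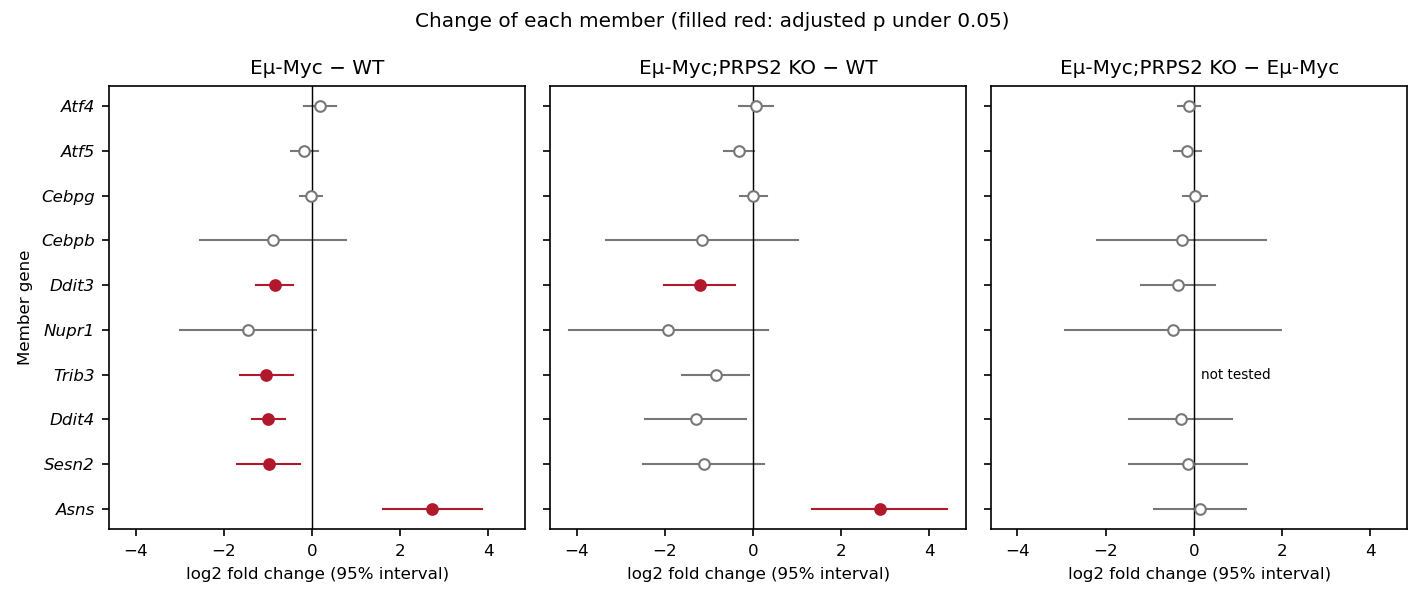
Log2 fold change of each member with its 95% interval in the 3 comparisons, filled where the limma adjusted p was under 0.05. Asns and Ddit3 pass in both comparisons with WT, which share the WT libraries, and no interval of the comparison between the 2 Eμ-Myc groups excludes 0.

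The genes around the core were taken from lists written from general knowledge of the pathway, and each count is to be read against the 55.6% of all genes that passed in Eμ-Myc against WT. Upstream, 15 genes of the eIF2 arm were tested in Eμ-Myc against WT, of which 9 passed as higher and 1 as lower, with a median of 0.49. Eif2ak4, the kinase GCN2 that senses uncharged tRNA, read 37.4, 48.6, 55.3 and 38.8 in WT and 95.3, 67.2, 99.0 and 97.2 in Eμ-Myc, a log2 change of 0.99 (SE 0.17, limma adjusted p 0.00102). The other eIF2 kinases did not pass, with 0.17 for Eif2ak1, -0.02 for Eif2ak2 and -0.23 for Eif2ak3, the kinase PERK of the endoplasmic reticulum. Eif2ak3 passed without WT library 4, at -0.37 (adjusted p 0.0396). The eIF2 alpha subunit Eif2s1 rose by 1.39, and Eif2b1 and Eif2b3, subunits of the exchange factor that phosphorylated eIF2 inhibits, rose by 1.25 and 1.40 (limma adjusted p at most 2.53e-05). Impact, an inhibitor of GCN2, fell by 0.65 (adjusted p 0.00585). Ppp1r15a, the stress-induced phosphatase subunit GADD34, ranged from 18.3 to 235 in WT and from 48.9 to 91.9 in Eμ-Myc and did not pass (0.07, SE 0.79). With WT libraries 1 and 4 (128 and 235) left out after the values were seen, its change was 1.65, a description and no test. Its constitutive relative Ppp1r15b gave 0.11 (adjusted p 0.390).

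Of 16 genes on the list of ATF, C/EBP and related factors, 1 passed as higher and 4 as lower, with a median of -0.39. The 1 that rose, Cebpz, by 0.55, shares the name but encodes a CCAAT-binding factor without a leucine zipper. Among the leucine zipper factors Batf, a factor of B and T cell activation, fell by 0.73 and Nfe2l1, a regulator of proteasome genes, by 0.36 (limma adjusted p 0.00617 and 0.0155). The call of Nfe2l1 was lost without Eμ-Myc library 4 (adjusted p 0.0554) and in the fit of all 12 libraries (0.0564). Creb1 fell by 0.32 and Cebpa, a myeloid factor, by 1.23 (adjusted p 0.0422 and 0.0213). Atf3, which ATF4 and CHOP can induce, read 113, 9.56, 9.14 and 49.4 in WT and 9.70, 11.5, 41.0 and 4.05 in Eμ-Myc and did not pass (-1.14, SE 0.91, adjusted p 0.311).

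Known ATF4 targets in amino acid supply were mostly higher in Eμ-Myc. Of 19 tested, 4 (Bcat1, Cth, Cbs and Slc1a4) reached the filter only through their Eμ-Myc libraries and are left out of the count, and 12 of the other 15 passed, all as higher, with a median of 1.10. Bcat1, which transfers amino groups of branched-chain amino acids, read 0.486 to 0.852 in WT and 45.1 to 63.0 in Eμ-Myc. The serine pathway enzymes Phgdh and Psat1 rose by 2.15 and 2.14, and the mitochondrial serine hydroxymethyltransferase Shmt2 by 2.09 (limma adjusted p at most 5.9e-06). The cystathionine lyase Cth read 0.0811 to 0.343 in WT, near the resolution of the files, and 6.89 to 9.78 in Eμ-Myc. Chac1, a glutathione-degrading target of ATF4 and CHOP, did not pass (-0.60, SE 0.61, adjusted p 0.423), and 3 genes of the 22 were too low to test, the cystine carrier Slc7a11 among them. Slc7a11 read 2.76 in WT library 1 and at most 1.44 in the other 11 libraries.

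All 13 tRNA synthetase genes of the list that ATF4 is known to raise passed as higher, with a median of 0.84. This list includes Xpot, which exports tRNA from the nucleus. Gars rose by 1.30, Yars by 1.08 and Mars by 0.97 (limma adjusted p at most 3.51e-05), the synthetases for glycine, tyrosine and methionine. Gars read 85.2, 77.8, 78.1 and 86.1 in WT and 187, 195, 210 and 218 in Eμ-Myc. The WT values lay close together and far from the Eμ-Myc values. Asns, the member with a role in amino acid supply, was higher as these 2 lists were.

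Targets of CHOP and ATF4 outside amino acid supply were split. Of 17 tested 2 passed as higher and 3 as lower, with a median of -0.12. The autophagy genes Sqstm1 and Atg12 fell by 0.69 and 0.48, and Bcl2l11, which encodes the death protein BIM, by 0.42 (limma adjusted p at most 0.00777), a call that Bcl2l11 lost without WT libraries 1 and 4 (0.0572). Eif4ebp1, a translation inhibitor, and Gadd45b were the 2 that rose, by 0.80 and 0.51. The cell cycle inhibitor Cdkn1a gave 0.63 (SE 0.28, adjusted p 0.0793). It read 38.3 in WT library 1 and 15.3 to 20.4 in the other WT libraries, and without library 1 its change was 0.92 (adjusted p 0.0025). Taking the eIF2 arm, the partners, both supply lists and these targets as 1 set, and leaving out the 4 genes tested through Eμ-Myc alone, 37 of 76 genes passed as higher and 8 as lower, with a median of 0.44 against -0.04 over all genes.

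Endoplasmic reticulum stress genes controlled outside ATF4 gave 8 higher and 2 lower of 18, with a median of 0.23, the same share as the 55.6% of all genes that passed. The chaperone Hspa5 did not pass (0.14, SE 0.12, limma adjusted p 0.336), the luminal genes Sdf2l1, Canx and Pdia6 rose by 1.18, 0.90 and 0.79, and the unfolded protein response factor Xbp1 fell by 0.60 (adjusted p 0.0366), a call lost without WT library 1 or 2 or Eμ-Myc library 3 or 4, without WT libraries 1 and 4 together, or in the fit of all 12 libraries (adjusted p 0.0621 to 0.126). The brakes on mTORC1 other than the members gave 1 higher and 5 lower of 10, with a median of -0.41. Sesn1, a Sestrin that p53 and FOXO factors control, read 127, 181, 170 and 129 in WT and 79.1, 83.5, 63.8 and 75.6 in Eμ-Myc, a log2 change of -0.99 (SE 0.15, adjusted p 4.34e-04). Sesn3 fell by 0.63 (adjusted p 0.0283), a call lost without WT library 3 or 4 or Eμ-Myc library 2 or 3 or in the fit of all 12 libraries (0.0553 to 0.118), and the arginine sensors Castor1 and Castor2 by 1.55 and 1.13. The inhibitor Deptor rose by 0.82 (adjusted p 0.00699). Of this list 60% passed, near the 55.6% of all genes. Sesn2 and Ddit4 were lower as well, and a joint change with the list was not tested.

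Ddit4 and Ddit3 also respond to signals outside the pathway, and lists for 2 of them were read in the same fit. Of 8 glucocorticoid-responsive genes 2 passed as higher and 4 as lower. Tsc22d3, which encodes GILZ, read 1201, 738, 612 and 847 in WT and 288, 494, 296 and 286 in Eμ-Myc and fell by 1.31 (limma adjusted p 0.00157), Nfkbia fell by 1.15 (adjusted p 0.0557 in the fit of all 12 libraries), and Klf9 rose by 1.09. Of 13 p53 genes 5 passed as higher and 2 as lower, a share of 53.8% near that of all genes, with Gtse1 higher by 2.82, Trp53 itself by 0.80 and Sesn1 lower.

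**Figure D4:**
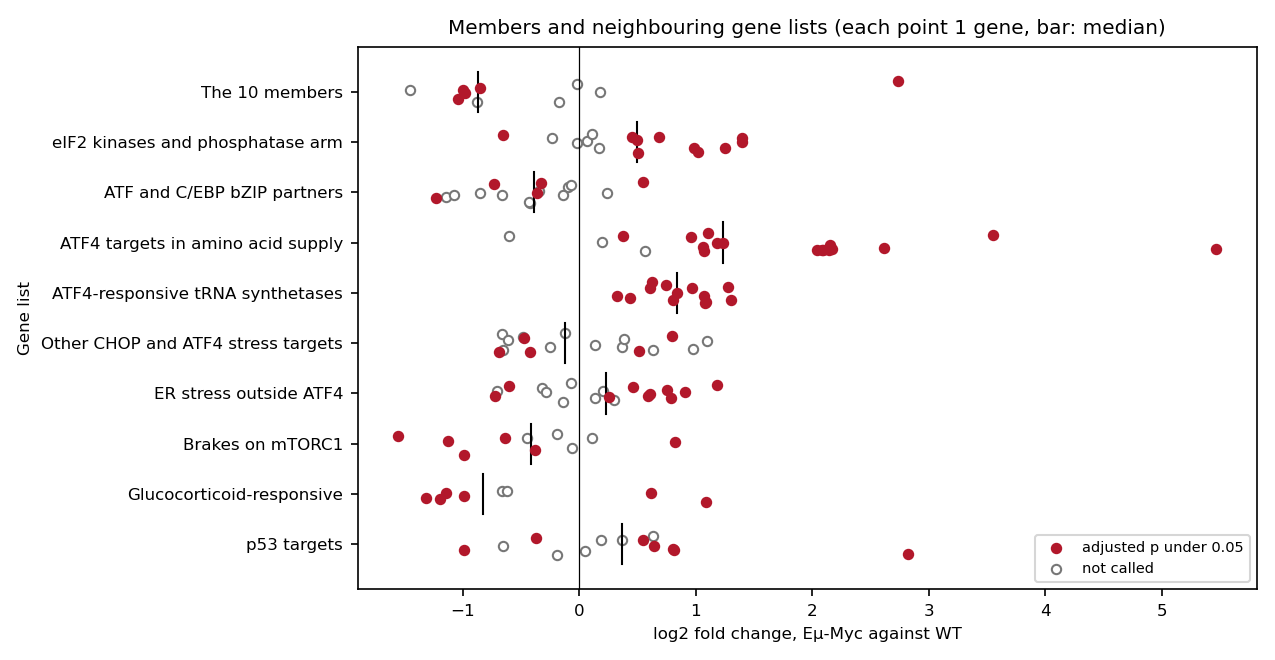
Log2 fold change in Eμ-Myc against WT (horizontal axis) of the 10 members and of the genes of 9 lists, each point 1 gene, filled where the limma adjusted p was under 0.05, with a bar at the list median. The tRNA synthetases and the amino acid supply targets lie mostly above 0 (medians 0.84 and 1.23, the latter with the 4 genes tested through Eμ-Myc alone), the brakes on mTORC1 and the ATF and C/EBP factors (a list that also holds Cebpz) mostly below (-0.41 and -0.39), and the members on both sides.

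Between the 2 Eμ-Myc groups no gene of these 9 lists passed, and none had an unadjusted p under 0.05. The smallest were for the oxidoreductase Ero1l (0.28, unadjusted limma p 0.0893), Atf7 (0.34, p 0.133) and Creld2 (-0.20, p 0.161), with an adjusted p of 1.00 each. Impact gave 0.27, Gcn1l1, a co-activator of GCN2, 0.26, and Slc7a1 and Slc1a4, carriers of amino acids, 0.35 and 0.42. The split between libraries was visible in the lists as well: Phgdh read 165 and 214 in knockout libraries 1 and 2 against 485 and 458 in libraries 3 and 4, and Gars 130 and 165 against 305 and 286. In the knockout group against WT, where 19.2% of all genes passed as higher and 10.9% as lower, 11 of 15 amino acid supply targets and 11 of 13 synthetases passed, all as higher, and 30 of 77 genes of the combined set passed as higher and 4 as lower, with the same 4 genes left out. With them 38 genes passed, a count that was 21 without knockout libraries 3 and 4, 55 without libraries 1 and 2 and 1 without WT libraries 1 and 4. Over all genes 3832 of 12692 passed, and in the same order 1368 of 12473, 8644 of 12295 and 4 of 12367. The fits with a pair left out were chosen after the values were seen and test nothing.

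Markers of other cells moved with several members. In Eμ-Myc against WT all 11 T cell markers and all 9 NK cell markers passed as lower, and 1 of 15 myeloid markers did, Itgax. In the fit of all 12 libraries 4 T cell, 1 NK cell and 0 myeloid markers passed. In the knockout group against WT 0 markers of these 3 lists passed, with medians of -3.23 (T cell), -2.54 (NK cell) and -1.26 (myeloid) against -3.03, -2.16 and -0.45 in Eμ-Myc. Against WT, 4 of 5 platelet and megakaryocyte markers were lower in the knockout group and passed (median -2.04), of which 0 did without WT library 1. WT library 1, with the highest myeloid sum of the 12 libraries (29780), was also the highest for Ddit3, Cebpb, Ddit4, Sesn2 and Nupr1. Knockout libraries 3 and 4, with the lowest sums, were the lowest pair for the same 5 genes and the highest pair for Asns. The part of myeloid RNA in these values was not tested.

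Leaving out WT libraries 1 and 4 was a choice made after the values were seen. The log2 changes in Eμ-Myc against WT were then -0.68 for Ddit3, -1.04 for Ddit4, -0.85 for Sesn2 and 3.50 for Asns, a description and no test. The T cell sums of the 2 WT libraries kept (820 and 1038) were still above those of Eμ-Myc. The part of T and NK cell RNA in the changes of Ddit3 and Ddit4 was not tested.

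**Figure D5:**
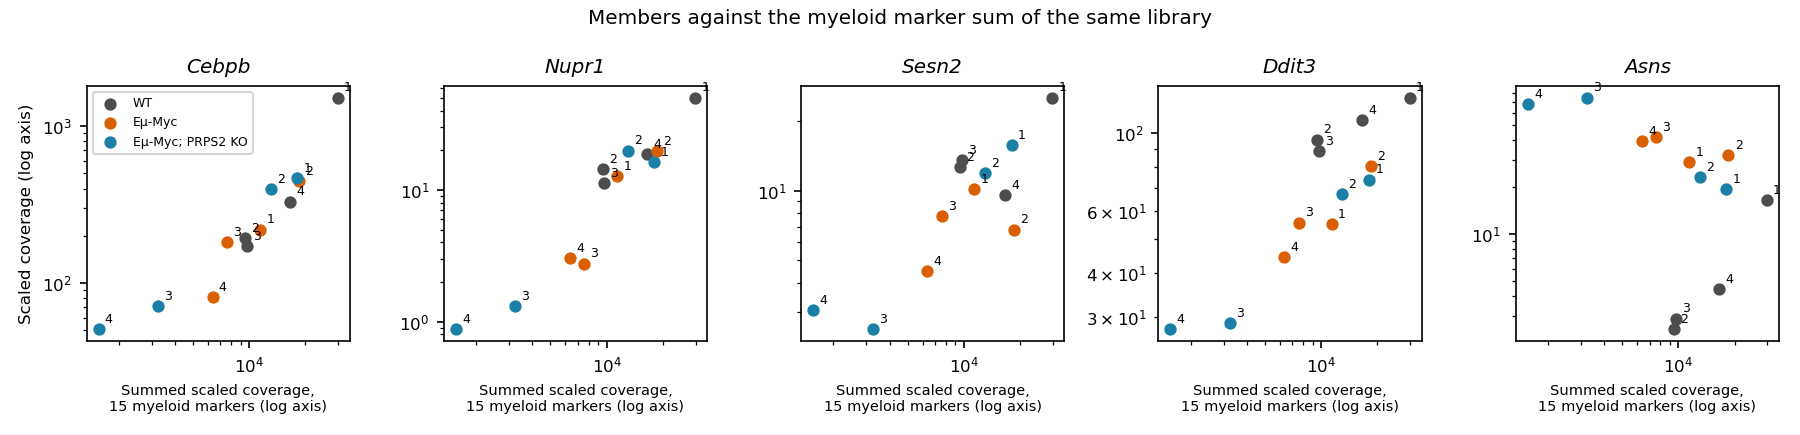
Scaled coverage of 5 members (log axis) against the summed coverage of 15 myeloid markers in the same library (log axis), points numbered by replicate and coloured by group. WT library 1 has the highest myeloid sum and the highest Cebpb, Nupr1, Sesn2 and Ddit3, and knockout libraries 3 and 4 have the lowest sums, the lowest values of these 4 genes and the highest Asns.

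Among themselves the members fell into patterns over the 12 libraries. Ddit3 had a Pearson r of 0.938 with Ddit4 and 0.912 with Nupr1, and Cebpb had 0.921 with Nupr1, while Asns was opposed to Trib3 (-0.821), Ddit4 (-0.777) and Ddit3 (-0.774). Atf4 stood apart, with r between -0.43 and 0.40 with the other 9, and so did Cebpg (-0.43 to 0.58) and Atf5 (-0.51 to 0.58). These values are a description: the libraries form 3 groups and share the cell markers described above, and no test was made. Among 9918 genes whose scaled coverage averaged 8 or more (9919 with Trib3), the genes most like each member were found by the same r of log2 values over 12 libraries. For Asns these were Kif23 (0.993), Hmgn2 (0.988) and Cks2 (0.986), and for Ddit3 Gpsm3 (0.989), Myl12b (0.988) and Ypel5 (0.987). Ddit4 was most like Nfkbia (0.974), Il10ra (0.969) and Glmp (0.966), and Sesn2 most like Pik3cb (0.993), Etv6 (0.991) and Itpripl2 (0.987). Cebpb was nearest to Nfil3 (0.984), Anxa1 (0.980) and Jdp2 (0.979), Nupr1 to Mcub (0.985), Ifitm3 (0.983) and Ccl9 (0.981), and Trib3 to Mapk8ip3 (0.982), Pnisr (0.981) and Ddhd2 (0.974). These 7 members each had between 305 and 1146 genes at an r of at least 0.9, so a high r singles out no gene. Atf4, Cebpg and Atf5 had 0 such genes, with Ppp2r5c (0.878), Papss1 (0.809) and Zdhhc12 (0.885) nearest.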

How the data were processed

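Directional libraries of polyadenylated RNA from splenic B cells were analysed from a coverage signal per gene that the authors deposited for each of the 12 libraries. The values have 1 decimal, 91.6% of those above 0 are not whole, and 6705 of 24982 genes are at 0 in all 12. The submitters' processing notes name DESeq, R 4.3.3 and mm10 without their roles; the aligner, the counter and the definition of coverage are not given in the sources used here. Since the values are not counts, no count model was used.

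Libraries were scaled by an unweighted trimmed mean of log ratios (trims of 30% of ratios and 5% of means). A gene entered a comparison if 4 or more of its 8 libraries reached a scaled coverage of 1, and the test was run on log2(scaled coverage + 0.5) with limma 3.58.1 in R 4.3.3 (trend and robust variance, two-sided, Benjamini-Hochberg over all genes tested, threshold 0.05). The procedure was tested on simulated data. Figures used matplotlib 3.10.9 in Python 3.11.15.

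The members and gene lists were chosen with earlier results of these data known. Named were all members, the 3 list genes with the smallest p in Eμ-Myc against WT and the 2 in the knockout group against Eμ-Myc, genes listed by name (the eIF2 kinases, for example), the 3 genes most like each member, and Prps2 and Myc as checks. Creb1, Cebpa, Eif4ebp1, Deptor, Itgax and the plasma cell markers were named after their values were seen, and not every gene the rule gave is described.

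Same-numbered libraries of the 2 Eμ-Myc groups deviated together from their group means (r of 0.658, 0.192, 0.254 and 0.607). The main fits used no pairing, and the replicate number as a block was an alternative fit. Other alternatives were 2 scalings, 2 filters, constants of 0.1 and 2, a fit of all 12 libraries, library quality weights, another variance model and leaving out each library. Leaving out WT libraries 1 and 4, knockout libraries 3 and 4 or knockout libraries 1 and 2 was chosen after seeing the data. Promoter sequences, motif shares and gene positions came from RefSeq, and gene strands and overlaps from GENCODE, both on GRCm38.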

Additional observations from a re-analysis of the deposited data

Results flagged for a closer look

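In WT, library 1 lay apart from the other 3 libraries for 2 members. Cebpb read 1520 there, a gap to the next library of 0.883 of the range of the group, and Asns read 16.5, a gap of 0.858; both exceed the critical value of Dixon's test at 95% for 4 samples. In all, 30 groups of 4 libraries were tested (10 members in 3 genotypes), and chance marks about 1 group in 20. With WT library 1 left out, the log2 change of Asns in Eμ-Myc against WT was 3.28. The same library had the highest myeloid marker sum of the 12, 29780, and the part of this in either value was not tested.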

How the results depend on the processing

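Asns in Eμ-Myc against WT passed in limma under each alternative that tested it, with log2 changes from 2.39 to 3.50, and Ddit3 and Ddit4 lost their calls there in the fit of all 12 libraries. Trib3 was not tested without any 1 WT library in that comparison, and the strict filter removed low members, so fewer were tested. The causes of the other changes were not tested. Scaling to total coverage moved the median log2 change of all genes in Eμ-Myc against WT from -0.04 to -0.18 and the share of higher genes among those that passed from 52.5% to 42.0%, with 7285 genes passing. Same-numbered libraries deviated together between the 2 Eμ-Myc groups, and the replicate block left 1 gene and 0 members there. Against WT not every number deviated together, and no main fit treated the numbers as pairs. For numbers 1 to 4 r was 0.231, -0.098, 0.267 and 0.136 with Eμ-Myc. With the knockout group it was 0.397, -0.423, 0.137 and -0.064. There, with the block, Nupr1 passed in the first comparison (Eμ-Myc and WT, 0.0436), and Asns no longer did in the third (knockout group and WT, 0.0527). Counts of the combined pathway lists against WT given here include 4 genes tested only through the higher group. Counts of members below leave out Trib3, except those of the knockout group against WT, which include it. Without Trib3 the count there was 3 with the fit of all 12 libraries and 7 with library quality weights. It was 0 to 4 when 1 library was left out. With knockout libraries 1 and 2 left out it was 6, a description and no test. The number of reads is unknown, and the resolution of the files limits Trib3 and Cth.

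For Eμ-Myc against WT the number of members that passed was 4 of 9. It was 2 of 6 with the filter at 10 in every library, 1 (Asns) with the fit of all 12 libraries and 7 with library quality weights, where 4850 of 8165, 5523 of 12704 and 8895 of 12704 genes passed. It was 3 to 4 when 1 library was left out. In Eμ-Myc against WT with WT libraries 1 and 4 left out the log2 change turned its sign to 0.10 for Cebpb, 0.32 for Atf3 and 0.063 for Chac1. For Eμ-Myc against WT with scaling to total coverage the log2 change turned its sign to -0.079 for Ppp1r15a, -0.036 for Ppp1r15b and -0.011 for Hspa5. In Eμ-Myc against WT with library quality weights the log2 change turned its sign to 0.53 for Atf3. For Eμ-Myc against WT, leaving out 1 library gave log2 changes from -0.10 to 0.027 for Cebpg, -0.073 to 0.059 for Eif2ak2, -0.48 to 0.74 for Ppp1r15a and -0.85 to 0.045 for Chac1. Between the 2 Eμ-Myc groups the number of members that passed was 0, and it was 7 with library quality weights and 4 with knockout libraries 1 and 2 left out. Counts with a pair of libraries left out, of the knockout group or of WT, here and below, follow a choice made after the values were seen. They are a description and no test. Between both Eμ-Myc groups the number of genes that passed was 1, and it was 7315 with library quality weights, 497 with knockout libraries 3 and 4 left out and 3360 with knockout libraries 1 and 2 left out. In the knockout group against Eμ-Myc the number of genes of the combined pathway lists that passed was 0, and it was 60 with library quality weights and 33 with knockout libraries 1 and 2 left out. Between the 2 Eμ-Myc groups with knockout libraries 3 and 4 left out the log2 change turned its sign to 0.29 for Ddit3, 1.14 for Cebpb, -0.069 for Cebpg, 0.63 for Ddit4, 0.92 for Sesn2, 1.31 for Nupr1, -0.72 for Asns, -0.40 for Slc1a4, -0.20 for Iars, -0.32 for Xpot, 1.27 for Dusp1, 0.57 for Nfkbia, -0.064 for Aen and 0.23 for Trp53inp1. Between both Eμ-Myc groups with library quality weights the log2 change turned its sign to 0.021 for Atf5 and 0.0022 for Gadd45b. In the knockout group against Eμ-Myc with knockout libraries 1 and 2 left out the log2 change turned its sign to 0.0096 for Gadd45b. Between the 2 Eμ-Myc groups, leaving out 1 library gave log2 changes from -0.79 to 0.28 for Cebpb, -0.045 to 0.076 for Cebpg, -0.70 to 0.10 for Ddit4, -0.56 to 0.25 for Sesn2, -1.11 to 0.19 for Nupr1 and -0.17 to 0.47 for Asns. Comparing the knockout group against WT the number of members that passed was 2, and it was 1 with the filter at 10 in every library, 4 with the fit of all 12 libraries, 1 with the replicate block, 8 with library quality weights, 0 with WT libraries 1 and 4 left out, 0 with knockout libraries 3 and 4 left out, 7 with knockout libraries 1 and 2 left out and 0 to 5 when 1 library was left out. In the knockout group against WT the number of genes that passed was 3832, and it was 6061 with the fit of all 12 libraries, 1840 with the replicate block, 10546 with library quality weights, 4 with WT libraries 1 and 4 left out, 1368 with knockout libraries 3 and 4 left out, 8644 with knockout libraries 1 and 2 left out and 608 to 6720 when 1 library was left out. For the knockout group against WT the number of genes of the combined pathway lists that passed was 38, and it was 74 with library quality weights, 1 with WT libraries 1 and 4 left out, 21 with knockout libraries 3 and 4 left out and 10 to 45 when 1 library was left out. Comparing the knockout group against WT with scaling to total coverage the log2 change turned its sign to -0.045 for Atf4 and -0.11 for Cebpg. For the knockout group against WT with knockout libraries 3 and 4 left out the log2 change turned its sign to 0.26 for Cebpb and -0.0906 for Cebpg. In the knockout group against WT with WT libraries 1 and 4 left out the log2 change turned its sign to -0.083 for Cebpg. Comparing the knockout group against WT, leaving out 1 library gave log2 changes from -0.057 to 0.20 for Atf4 and -0.071 to 0.054 for Cebpg.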
